A study of Mus musculus with 4 samples.

Results

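The genes described here encode the catalytic subunits by which the immunoproteasome differs from the standard proteasome, with their partners. They are Psmb8, Psmb9 and Psmb10 (the inducible catalytic subunits), Psmb5, Psmb6 and Psmb7 (the constitutive subunits they replace), Psme1, Psme2 and Psme3 (the PA28 activators) and Pomp (an assembly factor). They were chosen by name as a family, and all 10 were among the 27179 genes of the deposited count table. All 10 passed edgeR's filter on low counts, which left 13580 genes for testing. The cells were MC38, a wild-type mouse colon cancer line, sequenced without IFN-γ or with IFN-γ under normoxic (20% oxygen) or hypoxic (1.5% oxygen) conditions, as 1 library for each of the 4 conditions. The methods of the study give IFN-γ at 5 ng/mL for 24 h for most experiments, and the time spent under hypoxic conditions is not given in the sources used here. Because no condition had a replicate culture, every difference below is a difference between libraries of 1 cell line, and intervals are 95% intervals that cover counting error only.

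The 20S proteasome is a barrel of stacked rings that degrades proteins, and its outer rings are built of alpha and its inner rings of beta subunits. The catalytic beta subunits cleave after acidic (β1), basic (β2) and hydrophobic (β5) residues. IFN-γ, a cytokine released by T cells and natural killer cells, is known to act through JAK kinases and IRF1 to induce Psmb9 (β1i), Psmb10 (β2i) and Psmb8 (β5i), which take the places of Psmb6, Psmb7 and Psmb5 in newly assembled particles. The immunoproteasome is known for producing peptides that bind well to MHC class I molecules, which display them to CD8+ T cells. PA28αβ, made of Psme1 and Psme2, opens the barrel of 20S particles in the cytoplasm, PA28γ, made of Psme3, is mainly nuclear, and Pomp is the maturation factor needed for the beta ring to form.

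The inducible genes lie at 3 loci. On mouse chromosome 17 (GRCm38, matching the mm10 build in the submitters' processing notes), within the MHC region, Psmb9 (NCBI gene 16912, chr17:34182030-34187330, minus strand) and Psmb8 (NCBI gene 16913, chr17:34198195-34201454, plus strand) flank Tap1, which encodes a subunit of the peptide transporter. The annotated extents of Psmb9 and Tap1 are 225 bases apart, those of Tap1 and Psmb8 are 969 bases apart, and Tap2, the gene of the other transporter subunit, begins 3024 bases beyond Psmb8. Psmb10 (NCBI gene 19171) lies on the minus strand at chr8:105935728-105938392. Psme1 (NCBI gene 19186, chr14:55578494-55581527) and Psme2 (NCBI gene 19188, chr14:55587440-55591101) are 5912 bases apart.

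The 250 bases before the annotated start were searched on both strands for short motifs, for the 9 members with a RefSeq promoter in GRCm38.p6 (all but Psmb7). Stretches of 3 promoters are shown because they hold the gamma-activated and NRF1 motifs, which were found before 1 inducible and 2 constitutive genes. Capitals mark the motif in each, and every stretch is read on the strand of its gene.
Psmb8: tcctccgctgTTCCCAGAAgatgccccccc
Psmb5: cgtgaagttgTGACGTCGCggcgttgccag
Psmb6: acagaggcggactaaagagagTGACGGAGC
The stretch of Psmb8 (chr17:34198088-34198117) holds a gamma-activated site, TTCNNNGAA, a palindrome known from promoters that respond to IFN-γ, at positions -97 to -89 relative to the start. GENCODE M21, which starts the gene farther upstream, places it in the 5′ UTR of the first exon. This motif stood in 7.02% of 32851 promoters of 27025 genes and in no other member. The stretches of Psmb5 (chr14:54618023-54618052) and Psmb6 (chr11:70525327-70525356) hold TGACNNNGC, the element bound by NRF1, the factor known to sustain expression of standard proteasome genes. It lay at positions -47 to -39 relative to the start of Psmb5 and -9 to -1 relative to that of Psmb6, stood in 10.2% of all promoters, and was found in no other member. The NCBI extent of Psmb6 begins at chr11:70525324, so the stretch of Psmb6 lies inside that extent. A paired interferon regulatory element, GAAA with 2 bases of any kind before a further GAAA, stood in 2.98% of promoters and in no member, and the shorter AANNGAAA stood in 21.3% of promoters and only in Psmb6 among the members. The NF-κB motif, GGG and CC with 5 bases of any kind between, was found in 45.8% of promoters, Psmb6, Psmb9, Psme1 and Psme2 among them. Of the cores of the hypoxia response element, ACGTG was found before Psmb5, Psmb10 and Psme3 (16.6% of promoters) and GCGTG before Psmb8, Psmb9, Psmb10, Psme2 and Pomp (28.2% of promoters). The CCAAT box stood before Psmb9 and Psme3 (33.8% of promoters), and the GC box GGGCGG before Psmb6, Psmb9, Psme1, Psme2 and Pomp (32.7% of promoters). GENCODE M21 starts Psmb9 at chr17:34187764, farther upstream than the 34187330 used here, so the whole window of Psmb9 lies inside the gene there. These are matches of letters within a short window, and binding was not measured.

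The libraries held between 34302971 and 34537939 counts, so depth differed by at most 1.007 times. A set of genes known to respond to low oxygen, among them Car9 and Vegfa, was set against the oxygen label. Of these, 9 of 9 genes were raised under hypoxic conditions, by 0.74 to 2.14 on the log2 scale, where 8.23% of all genes tested were raised. The set was chosen with earlier results of these data known, so it is no independent check, and 1 of the 9, Adm, had at most 40 counts. Of 10 markers of colon epithelium, 5 had at most 3 counts in every library, the adherens junction gene Cdh1 and the intestinal factors Cdx1 and Cdx2 were at 0 in all 4, and the summed level was 3.27 to 3.81 CPM (counts per 1000000 counts). The epithelial label therefore had little marker support in these RNA libraries. Of 10 immune cell markers 5 had at most 3 counts in every library, Cd8a and Itgam were at 0, and the sum was 5.34 to 7.32 CPM, with its lowest value in the library given IFN-γ under hypoxic conditions. Most of that sum was Cd68, at 209 counts untreated, 212 with IFN-γ, 236 under hypoxic conditions and 170 with both. The 6 markers of stroma and endothelium summed to 36.5 to 43.4 CPM. Most of this sum was Pdgfra, at 1177, 1175, 1341 and 1077 counts in the same order, and no other gene of the 6 exceeded 72 counts. Acta2, also of the 6, was raised with IFN-γ, from 7 and 6 counts to 17 and 30 counts.

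Before IFN-γ the standard subunits led. Levels are given as normalised CPM per kilobase of exon, so that genes of different length can be set side by side. In the untreated normoxic library Psmb7 stood at 318.9 CPM per kb, Psmb6 at 242.3, Psmb5 at 170.1, Psme3 at 146.4, Psmb10 at 109.7, Psme1 at 108.6, Psme2 at 91.8, Pomp at 56.6, Psmb8 at 52.3 and Psmb9 at 20.1. Psmb10 and Psme1, neighbours in this order, did not differ beyond counting error. Thus all 3 inducible subunits were already detected in untreated cells, each below its constitutive counterpart. With IFN-γ under normoxic conditions the order became Psmb10 at 519.0 CPM per kb, Psme2 at 341.2, Psmb7 at 339.4, Psme1 at 298.4, Psmb6 at 262.7, Psmb8 at 207.9, Psmb5 at 174.4, Psme3 at 141.8, Psmb9 at 140.1 and Pomp at 71.3. Here Psme2 and Psmb7, and Psme3 and Psmb9, did not differ beyond counting error. The ties in both libraries, and the order with IFN-γ, depend on the exon length used. With the longest transcript, relative to the mean of the 11 noncatalytic 20S subunits, untreated Psmb10 stood at 0.466 and Psme1 at 0.422. With IFN-γ, Psme2 then stood at 1.33 and Psmb7 at 1.14, and Psme3 at 0.543 and Psmb9 at 0.347. Psmb5, at 0.647, lay above Psmb8, at 0.599. The length of Pomp is uncertain, because its 3 annotated isoforms differ widely in exon length, so its level is less comparable than the others.

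**Figure D1:**
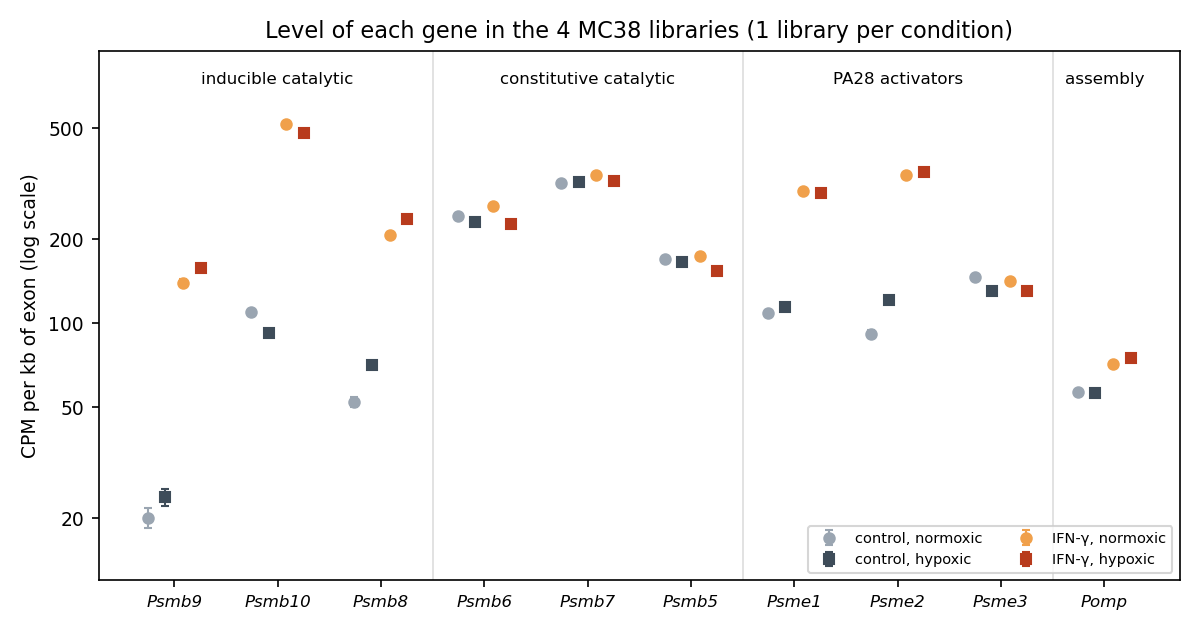
Level of each gene in CPM per kb of exon on a log axis, with 1 point per library and 95% counting intervals (most are smaller than the points). The inducible catalytic subunits, Psme1 and Psme2 separate into low control and high IFN-γ points, from 20.1 to 140.1 for Psmb9 under normoxic conditions, while Psmb5, Psmb6, Psmb7 and Psme3 stay near one level.

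To ask what IFN-γ did to these genes, the libraries with IFN-γ were set against those without, in an additive fit with oxygen as the other term. IFN-γ raised 6 of the 10 members and lowered none, where 4.76% of all genes tested were raised and 1.10% were lowered. The 6 were the 3 inducible catalytic subunits, both PA28αβ genes and Pomp. The constitutive catalytic subunits and Psme3 were not called. The p-values are edgeR quasi-likelihood values, Benjamini-Hochberg adjusted over all genes tested, and the spread behind them is the departure of the 4 libraries from additivity, so they are no test on replicate cultures. Pomp lost its call when the coefficient of variation was set at 10% (adjusted p = 0.190 in edgeR), a value chosen to stand for culture to culture variation, and over the 8 other fits its adjusted p ran from 2.95e-06 to 1. The other 5 kept their calls in all 8, but the size of their adjusted p-values depended strongly on the fit. Without the other stimulus in the model they rose to 6.37e-05 for Psmb9 and 0.00150 for Psmb8 (edgeR), the lowest and highest of the 5. The very small values given below are therefore those of 1 fit and do not measure certainty.

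Psmb9, the β1i subunit, had 609 counts in the untreated normoxic library, 4205 with IFN-γ under normoxic conditions, 721 in the untreated hypoxic library and 4718 with both. Both libraries with IFN-γ were far above both without it. This was the largest change of any member, at a log2 change of 2.76 (SE 0.0740, adjusted p = 4.10e-287, edgeR), and it ranked 8 under normoxic and 10 under hypoxic conditions among the 10443 genes that had 100 counts or more in each library. The single pairs gave a log2 change of 2.80 (2.68 to 2.93) under normoxic and 2.72 (2.61 to 2.84) under hypoxic conditions.

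Psmb10, the β2i subunit, had 4783 counts untreated, 22410 with IFN-γ, 4007 under hypoxic conditions and 20858 with both. Its log2 change was 2.32 (SE 0.0545), with an adjusted p below the smallest number edgeR could store. In the pairs it was 2.24 (2.20 to 2.29) under normoxic and 2.39 (2.34 to 2.44) under hypoxic conditions, so Psmb10 alone among the inducible catalytic subunits had the larger change under hypoxic conditions. Because it began from a higher level, Psmb10 and not Psmb9 was the most abundant transcript per length of all 10 members once IFN-γ was given.

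Psmb8, the β5i subunit, had 2214 counts untreated, 8723 with IFN-γ, 3000 under hypoxic conditions and 9948 with both. The additive log2 change was 1.87 (SE 0.0597, adjusted p = 5.65e-204, edgeR). The change was 1.99 (1.92 to 2.06) under normoxic and 1.74 (1.68 to 1.80) under hypoxic conditions, and the highest count was in the library with both stimuli.

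Among the activators, Psme1, the α subunit of PA28, had 3674 counts untreated, 10001 with IFN-γ, 3879 under hypoxic conditions and 9867 with both. Its log2 change was 1.41 (SE 0.0575, adjusted p = 2.27e-127, edgeR), and the hypoxic and normoxic libraries of each treatment lay close together. Psme2, the β subunit, had 3104 counts untreated, 11423 with IFN-γ, 4081 under hypoxic conditions and 11657 with both, and a log2 change of 1.71 (SE 0.0573, adjusted p = 2.76e-186, edgeR). The libraries with IFN-γ lay above those without for both genes. Psme3, the γ subunit, had 13507 counts untreated, 12957 with IFN-γ, 12013 under hypoxic conditions and 11893 with both, and a log2 change with IFN-γ of -0.02 (adjusted p = 0.938, edgeR).

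Pomp, which guides assembly of the beta ring, moved far less than the inducible subunits. It had 8220 counts untreated, 10257 with IFN-γ, 8152 under hypoxic conditions and 10813 with both, a log2 change of 0.38 (SE 0.0538, adjusted p = 1.39e-10, edgeR). Its pairs, 0.33 (0.29 to 0.38) and 0.42 (0.38 to 0.46), lay inside the range that held the central 95% of the 10443 genes, which was -0.32 to 0.46 under normoxic and -0.31 to 0.49 under hypoxic conditions. The changes of Psmb8, Psmb9, Psmb10, Psme1 and Psme2 all lay outside it.

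The constitutive catalytic subunits were close to level. Psmb6 (β1) had 6698 counts untreated, 7190 with IFN-γ, 6363 under hypoxic conditions and 6235 with both, and a log2 change with IFN-γ of 0.05 (adjusted p = 0.833, edgeR). Psmb7 (β2) had 11212, 11814, 11287 and 11291 counts in the same order, and a log2 change of 0.05 (adjusted p = 0.805, edgeR). Psmb5 (β5) had 5132, 5210, 4997 and 4593 counts in that order, and a log2 change of -0.04 (adjusted p = 0.911, edgeR). The libraries with and without IFN-γ overlapped for Psmb5 and Psmb6. For Psmb7 both libraries with IFN-γ, at 344.4 and 329.5 normalised CPM, lay above both without, at 323.7 and 326.4. Of the 31-base words of Psmb5 transcripts, 71.68% also occur in other annotated genes, mainly the processed copies Gm3375 and Psmb5-ps, as do 63.41% of those of Psme2 (Psme2b and Gm7928), 21% of those of Psme1, 15.36% of those of Psmb6 (Psmb6-ps and Psmb6-ps2), 4.07% of those of Psmb7 and 3.28% of those of Pomp. How reads that match several genes were counted is not given in the sources used here, so the levels of these genes, and the shares that rest on them, are uncertain, those of Psmb5 and Psme2 most. Psmb8, Psmb9, Psmb10 and Psme3 share no such word. In GENCODE M21, 34.91% of the exon bases of Psmb7 overlap Nek6 on the other strand, 15.68% of those of Psmb9 overlap Tap1 and 11.43% of those of Psmb8 overlap Gm20496. The NCBI extents of Psmb7 and Nek6, and of Psmb9 and Tap1, do not overlap, and whether counting used the strand is not given in the sources used here.

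**Figure D2:**
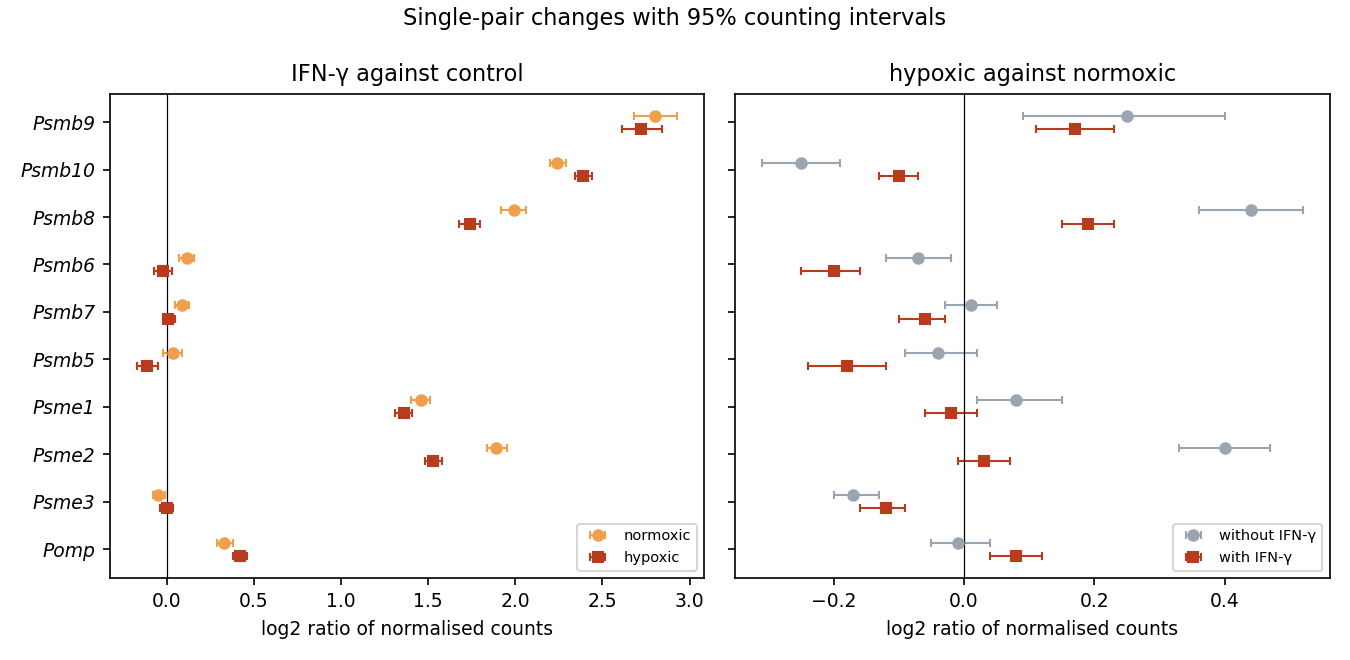
Log2 ratio of normalised counts between 2 libraries for each gene, with 95% counting intervals. IFN-γ against control is on the left, for normoxic and hypoxic libraries, and hypoxic against normoxic on the right, without and with IFN-γ, on a narrower axis. The IFN-γ changes of Psmb9, Psmb10, Psmb8, Psme1 and Psme2 run from 1.36 to 2.80, while the hypoxia changes of all 10 genes lie between -0.25 and 0.44.

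The balance within each catalytic pair was then measured inside each library, where scaling between libraries has no part. At the β1 position, Psmb9 made up 7.66% (7.08 to 8.27) of the Psmb9 and Psmb6 transcripts per kb in untreated normoxic cells and 34.8% (33.9 to 35.7) with IFN-γ. Under hypoxic conditions the share was 9.37% (8.72 to 10) without and 40.8% (39.9 to 41.8) with IFN-γ, so Psmb6 remained the more abundant of the pair in every library. At β2, Psmb10 made up 25.6% (24.9 to 26.2) of the pair untreated and 60.5% (59.9 to 61.0) with IFN-γ under normoxic conditions, and 22.3% (21.6 to 22.9) and 59.8% (59.3 to 60.4) under hypoxic conditions. At β5, Psmb8 made up 23.5% (22.6 to 24.4) untreated and 54.4% (53.5 to 55.2) with IFN-γ under normoxic conditions, and 30% (29.0 to 30.9) and 60.7% (59.8 to 61.5) under hypoxic conditions. The inducible transcript was thus the majority at β2 and β5 with IFN-γ. These shares depend on the exon length used: with the longest transcript as the length the β5 share with IFN-γ under normoxic conditions was 48.0%, so that Psmb5 was the majority there, and the β1 share of that library was 25.7%.

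**Figure D3:**
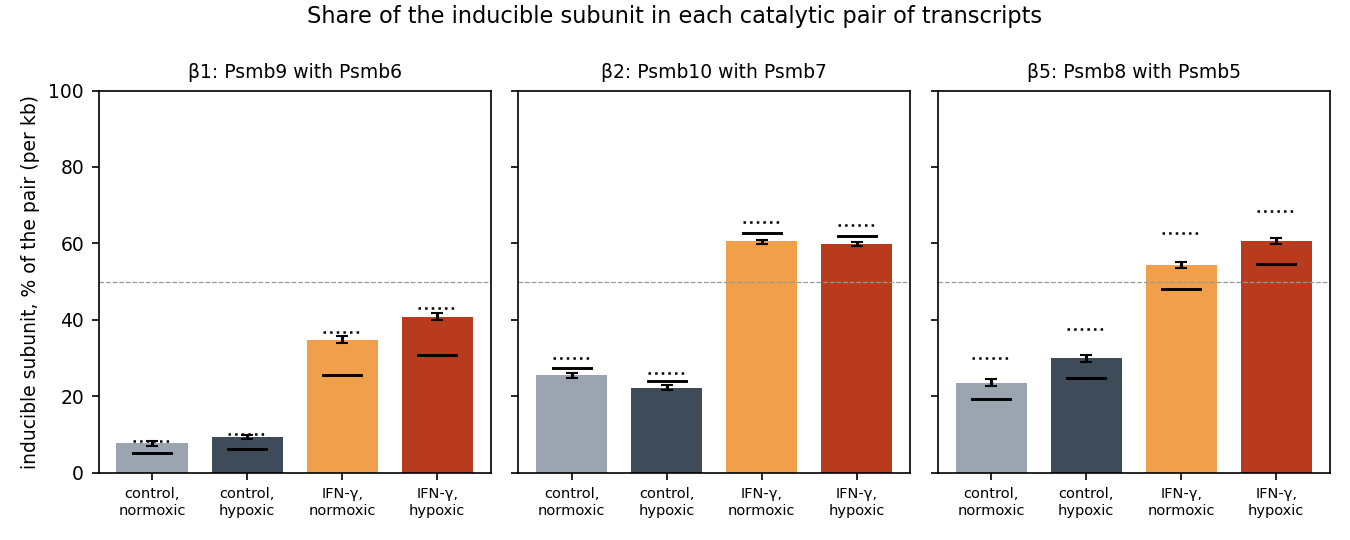
Percent of each catalytic pair that the inducible subunit makes up, from counts per kb of exon, in each of the 4 libraries, with 95% exact counting intervals. Solid ticks show the share with the longest transcript as the length and dotted ticks the share of raw counts. The dashed line marks 50%, which Psmb9 stays under in all 4 libraries by every length.

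The change of each ratio is free of gene length. IFN-γ multiplied the ratio of Psmb9 to Psmb6 by 6.43 under normoxic and 6.67 under hypoxic conditions, which differ by less than their counting intervals. The ratio of Psmb10 to Psmb7 was multiplied by 4.45 and 5.20, and that of Psmb8 to Psmb5 by 3.88 and 3.61. Hypoxia without IFN-γ multiplied these ratios by 1.25 at β1, 0.832 at β2 and 1.39 at β5, with log2 changes of 0.32 (0.15 to 0.48), -0.26 (-0.34 to -0.19) and 0.48 (0.38 to 0.57). Without IFN-γ, then, β2 alone shifted toward its constitutive subunit in the hypoxic library. With IFN-γ the log2 changes were 0.37 (0.29 to 0.45) at β1, -0.04 (-0.08 to 0.01) at β2 and 0.37 (0.30 to 0.44) at β5, so that no shift at β2 was seen beyond counting error.

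Summed per length, the 3 inducible catalytic subunits went from 182.0 to 867.0 CPM per kb with IFN-γ under normoxic conditions, and in the hypoxic libraries from 186.8 to 878.2. The 3 constitutive subunits stood at 731.3 and 776.4, and at 718.1 and 706.6. The transcripts for all 6 therefore went from 913.3 to 1643.5 CPM per kb under normoxic conditions, whereas the mean of the 11 noncatalytic 20S subunits, which both forms of the particle share, went from 248.4 to 288.5. Relative to that mean, Psmb10 stood at 0.442 before and 1.80 after IFN-γ under normoxic conditions, Psmb8 at 0.210 and 0.721, and Psmb9 at 0.0809 and 0.486. Under hypoxic conditions the same ratios were 0.383 and 1.80 for Psmb10, 0.295 and 0.882 for Psmb8, and 0.0991 and 0.585 for Psmb9. These ratios depend on the exon length used. For the library with both stimuli, the longest transcript gave 1.92 for Psmb10, 0.736 for Psmb8 and 0.420 for Psmb9. Raw counts gave 2.05, 0.977 and 0.464 in the same order. Of these 3 subunits only Psmb10 exceeded the noncatalytic mean, and did so only with IFN-γ.

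Among the activators, Psme1 and Psme2 together made up 57.8% of PA28 transcripts per kb in untreated normoxic cells, 81.9% with IFN-γ, 64.4% under hypoxic conditions and 83.2% with both. Psme1 per Psme2 was 1.18 untreated, 0.875 with IFN-γ, 0.950 under hypoxic conditions and 0.846 with both. The size of the gap in the untreated pair depends on the length used. With the longest transcript, relative to the noncatalytic mean, Psme1 stood at 0.422 and Psme2 at 0.412, which do not differ beyond counting error. In raw counts PA28αβ was a smaller share, 33.4% untreated and 62.3% with IFN-γ under normoxic conditions, because the exons of Psme3 are longer.

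Hypoxia had small effects on the same genes. In the additive fit hypoxia raised Psmb8, Psmb9 and Psme2, 3 of the 10 members, where 8.23% of all genes tested were raised. It lowered Psmb10 and Psme3, 2 of the 10, where 6.83% were lowered. The log2 changes were 0.31 for Psmb8 (SE 0.0584, adjusted p = 5.44e-06, edgeR), 0.20 for Psmb9 (SE 0.0713, adjusted p = 0.0400, edgeR), 0.20 for Psme2 (SE 0.0562, adjusted p = 0.00381, edgeR), -0.17 for Psmb10 (SE 0.0524, adjusted p = 0.0101, edgeR) and -0.14 for Psme3 (SE 0.0517, adjusted p = 0.0382, edgeR). Every member's hypoxia change lay inside the range that held the central 95% of the 10443 genes, -0.36 to 0.51. None of the 5 calls remained with a coefficient of variation of 10%, where 362 of 13580 genes were raised and 66 lowered. DESeq2's Wald test kept only the call of Psmb8, where 362 of 9631 genes were raised and 214 lowered. Psmb6, at -0.14 (adjusted p = 0.0802, edgeR), Psmb5, at -0.11 (adjusted p = 0.228, edgeR), Psmb7, Psme1 and Pomp were not called.

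The hypoxia changes of Psmb8 and Psme2 were larger without IFN-γ. For Psmb8 the log2 change was 0.44 (0.36 to 0.52) without and 0.19 (0.15 to 0.23) with IFN-γ. For Psme2 it was 0.40 (0.33 to 0.47) without and 0.03 (-0.01 to 0.07) with IFN-γ. Psmb9 changed by 0.25 (0.09 to 0.40) and 0.17 (0.11 to 0.23), and Psmb10 by -0.25 (-0.31 to -0.19) and -0.10 (-0.13 to -0.07). In both states of IFN-γ, then, Psmb8 and Psmb9 lay higher and Psmb10 lower in the hypoxic library.

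Seen from the other side, the IFN-γ change was smaller under hypoxic conditions for Psme2, by 0.37 on the log2 scale, a difference of -0.37 (-0.44 to -0.29), and for Psmb8, with a difference of -0.25 (-0.34 to -0.16). It was larger for Psmb10, at 0.15 (0.08 to 0.22), and for Psmb9 the interval, -0.25 to 0.09, included 0. With 1 library per condition these differences could not be tested. The central 95% of 10443 genes ran from -0.36 to 0.40, so that Psme2 lay just outside and the other members inside, and 34.5% of those genes differed by more than their counting interval. With both stimuli against neither, the log2 changes were 2.97 (2.85 to 3.09) for Psmb9, 2.18 (2.12 to 2.25) for Psmb8, 2.14 (2.09 to 2.19) for Psmb10, 1.92 (1.87 to 1.98) for Psme2 and 1.44 (1.39 to 1.5) for Psme1.

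**Figure D4:**
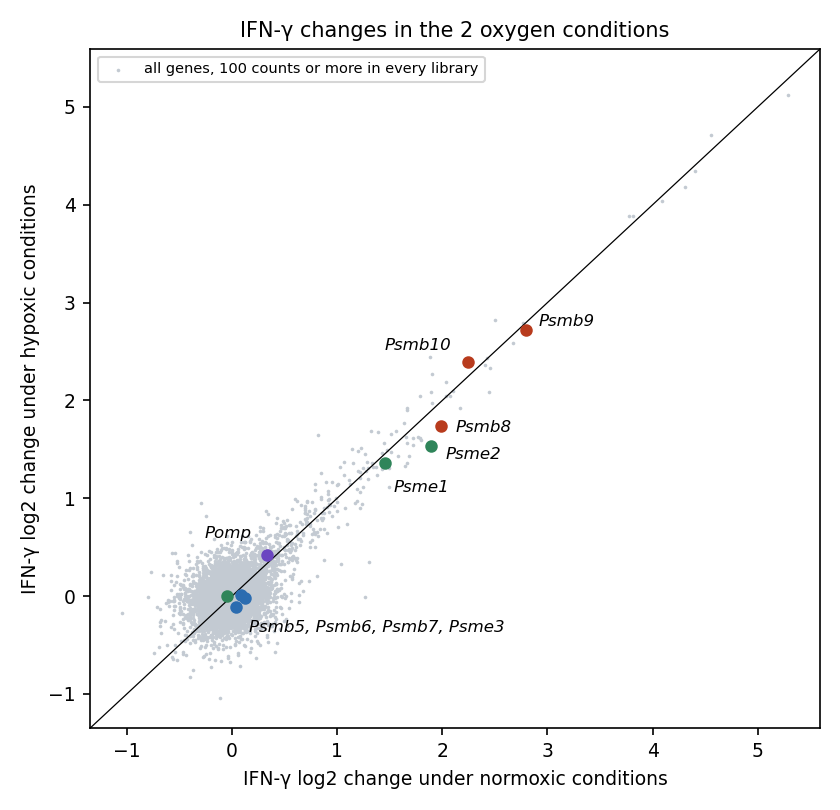
IFN-γ log2 change under hypoxic conditions (vertical) against that under normoxic conditions (horizontal), 1 small point for each of the 10443 genes, with the members in colour and the line of equal change. Psmb9 lies near the line at 2.80 and 2.72, Psmb10 above it at 2.24 and 2.39, and Psmb8 and Psme2 below it, the latter at 1.89 and 1.53.

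Most of the rest of the proteasome moved little. Of 43 other proteasome genes 41 were tested, and IFN-γ raised 6 of them, where 4.76% of all genes tested were raised. The median log2 change over the list was 0.04 against -0.01 over all genes tested. Of the alpha ring 4 of 7 genes were raised, Psma2 (0.29), Psma4 (0.21), Psma5 (0.33) and Psma7 (0.21). Of the noncatalytic beta subunits 1 of 4 was raised, Psmb4 (0.27), and of the chaperones 1 of 7, Psmg4. Psmg4, part of a chaperone pair that helps to assemble the alpha ring, had 489 counts untreated, 810 with IFN-γ, 463 under hypoxic conditions and 674 with both, a log2 change of 0.65 (SE 0.0982, adjusted p = 1.85e-09, edgeR). None of the 6 ATPases and none of the 13 other subunits of the 19S cap, which unfolds ubiquitinated proteins, was called, nor was any of 4 other activators, inhibitors and deubiquitinases. With a coefficient of variation of 10%, Psmg4 alone kept its call, where 428 of 13580 genes tested were raised. The thymus-restricted catalytic subunit Psmb11, whose gene neighbours Psmb5, and the testis-restricted Psma8 had at most 2 counts in any library and were not tested.

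Hypoxia raised none of the 41 and lowered 9, by 0.15 to 0.29 on the log2 scale, with a list median of -0.08 against 0.00 over all genes tested. Of all genes tested hypoxia raised 8.23% and lowered 6.83%. The 9 lowered genes were Psma4, Psmb2, Psmb3, Psmc5, Psmd3, Psmd12, Adrm1, Psmg3 and Usp14, spread over the 20S rings, the cap, a chaperone and a deubiquitinase. Adrm1, a ubiquitin receptor of the cap, had 12085 counts untreated, 12783 with IFN-γ, 10272 under hypoxic conditions and 10643 with both, a log2 change with hypoxia of -0.25 (SE 0.0523, adjusted p = 6.17e-05, edgeR). None of the 9 calls remained with a coefficient of variation of 10%, where 66 of 13580 genes tested were lowered.

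**Figure D5:**
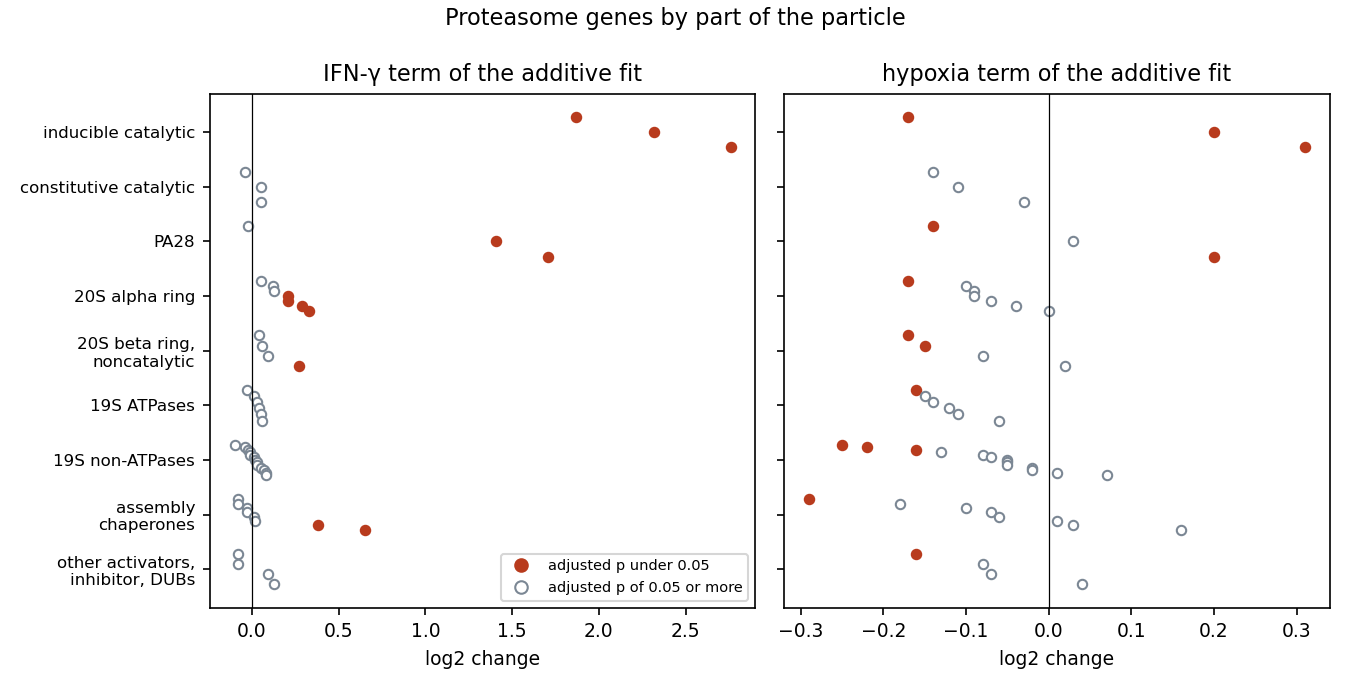
Log2 change of each tested proteasome gene with IFN-γ (left) and hypoxia (right, narrower axis) in the additive edgeR fit, grouped by part of the particle, with filled points for an adjusted p under 0.05. With IFN-γ the inducible catalytic subunits, Psme1 and Psme2 lie at 1.41 to 2.76 and no other proteasome gene exceeds 0.65, while with hypoxia all points lie between -0.29 and 0.31.

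Genes that act before and after the immunoproteasome in this pathway were raised too. Of 10 tested genes of IFN-γ signalling, 7 were raised by IFN-γ and 1 was lowered, with a list median of 0.81. Over all genes tested 4.76% were raised by IFN-γ and 1.10% lowered. Irf1, a transcription factor known to bind the promoters of the inducible subunits, had 3770 counts untreated, 20118 with IFN-γ, 4422 under hypoxic conditions and 23759 with both, a log2 change of 2.43. With IFN-γ Nlrc5, the activator of MHC class I genes, changed by 2.66, the feedback inhibitor Socs1 by 1.5, Irf9 by 0.82, Irf2 by 0.79 and Jak2 by 0.56. The lowered gene was Ifngr1, the ligand-binding chain of the receptor, at -0.25 (adjusted p = 0.0309, edgeR). Of this list hypoxia raised Ifngr1, Jak1, Jak2 and Irf1, by up to 0.30, where 8.23% of all genes tested were raised. These 4 calls are given from the additive fit alone. The hypoxia call of Psmb8, at 0.31, did not remain with a coefficient of variation of 10%. The IFN-γ change of Irf1 differed between hypoxic and normoxic conditions by 0.01 (-0.06 to 0.08). That of Nlrc5, Irf2 and Socs1 was larger under hypoxic conditions by 0.33 (0.19 to 0.46), 0.40 (0.25 to 0.54) and 0.37 (0.14 to 0.59). The intervals for Jak2 (0.12, -0.03 to 0.27), Irf9 (0.07, -0.06 to 0.20) and Ifngr1 (0.02, -0.14 to 0.19) included no change. Nlrc5 and Socs1 lay inside the central range of the 10443 genes, -0.36 to 0.40, and Irf2 at its upper end. Of those genes 34.5% differed by more than their counting interval. With 1 library per condition these differences could not be tested. Irf8 had at most 12 counts and was not tested.

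Of 5 known regulators of proteasome gene expression, IFN-γ raised 1, Stat3, where 4.76% of all genes tested were raised. Stat3 had 2400 counts untreated, 3644 with IFN-γ, 2048 under hypoxic conditions and 3990 with both, a log2 change of 0.79 (SE 0.0650, adjusted p = 3.21e-32, edgeR). Nfe2l1, which encodes NRF1, changed by 0.05 with IFN-γ (adjusted p = 0.810, edgeR).

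Of 12 genes of peptide supply and class I loading, IFN-γ raised 6 and lowered none, with a list median of 0.52. Of all genes tested IFN-γ raised 4.76% and lowered 1.10%. Tap1 changed by 2.04 and Tap2 by 2.11, close to the 1.87 of the neighbouring Psmb8 and below the 2.76 of Psmb9. The peptide editors Tapbp and Tapbpl changed by 1.58 and 1.94, the trimming peptidase Erap1 by 1.34 and the class I light chain B2m by 0.91. The cytosolic peptidases Thop1 and Blmh, which act on peptides the proteasome releases, were not called with IFN-γ and were lowered by hypoxia, at -0.23 and -0.18. In the additive fit hypoxia raised Tap1 (0.16, adjusted p = 0.0207, edgeR) and Tap2 (0.20, adjusted p = 0.0139, edgeR), as it raised Psmb8 and Psmb9 of the same locus. Of all genes tested 8.23% were raised and 6.83% lowered by hypoxia. The hypoxia calls of Psmb8 and Psmb9 did not remain with a coefficient of variation of 10%. Those of Tap1, Tap2, Thop1 and Blmh are given from the additive fit alone.

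For each of the 5 genes induced most, the genes of most similar pattern outside the 10 members were sought by Euclidean distance over 3 log2 changes (IFN-γ under normoxic and under hypoxic conditions, and hypoxia without IFN-γ), which rest on the 4 libraries. For Psmb9 they included Irgm1 (distance 0.249) and Irf1 (0.467). For Psmb8 they were Trim12c (0.250), Trim21 (0.280) and Vwa5a (0.292), and for Psme2 they were Vwa5a (0.168), Trim12c (0.188) and Pla1a (0.199). Psmb8 and Psme2, from different chromosomes, were themselves 0.241 apart, and with that closeness had 2 of these genes in common. For Psme1 they were H2-Q4 (0.0847), Erap1 (0.103) and Parp12 (0.129). Psmb10 had Il15ra (0.328), Irak2 (0.366) and Ube2l6 (0.449), the greatest nearest distance of the 5.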

How the data were processed

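RNA-seq of MC38 cells was performed with 1 library per condition. Per the labels, libraries were strand-specific and made from poly-A RNA (the text of the study says total RNA), and read as paired ends on a DNBSEQ instrument. Reads were aligned with HISAT2, and the submitters' processing notes name mm10 and featureCounts. The annotation and the settings for strand and for reads that match several genes are not given in the sources used here. The table that the authors deposited holds raw read counts for 27179 NCBI gene IDs, of which 25275 matched a symbol.

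The counts were tested with edgeR 4.0.16 in R 4.3.3 (quasi-likelihood test, TMM, filterByExpr at a minimum of 10 counts, additive model of oxygen and IFN-γ, Benjamini-Hochberg threshold 0.05). It has 1 residual degree of freedom per gene, pooled over genes to a coefficient of variation of 4.71%, in which differences between cultures and any interaction are mixed. The fit was tested on simulated data. The change between 2 libraries is the log2 ratio of their TMM-normalized counts with 0.5 added, with Clopper-Pearson intervals, and differences between such changes have Poisson intervals. Exon lengths are unions of GENCODE M21 exons within the NCBI extent of the gene. Promoters are RefSeq's. All members are named, and from the other lists the genes with an adjusted p under 0.05 and a log2 change of at least 0.5, with at most 4 others each, which the text exceeds where it names all called genes of a list. The members and lists were chosen with earlier results of these data known. One gene of the lists is not reported here. Alternatives were other normalizations (DESeq2 1.42.0 size factors, total counts), DESeq2's Wald test, other filters, a fit without the other stimulus, fixed coefficients of variation of 10% and 20%, an added log2 minimum of 0.5, 5 counts in place of 0.5, and other gene lengths.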

Additional observations from a re-analysis of the deposited data

Results flagged for a closer look

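For 5 members the change had opposite signs in the 2 pairs of libraries that make the same comparison. In each case 1 of the 2 intervals included 0, and the difference was not tested. The IFN-γ change of Psmb5 was 0.04 (-0.02 to 0.09) under normoxic and -0.11 (-0.17 to -0.05) under hypoxic conditions, a difference of -0.14. That of Psmb6 was 0.12 (0.07 to 0.16) and -0.02 (-0.07 to 0.03), a difference of -0.13. The hypoxia change of Psmb7 was 0.01 (-0.03 to 0.05) without and -0.06 (-0.10 to -0.03) with IFN-γ, a difference of -0.08. That of Psme1 was 0.08 (0.02 to 0.15) and -0.02 (-0.06 to 0.02), a difference of -0.10, and that of Pomp was -0.01 (-0.05 to 0.04) and 0.08 (0.04 to 0.12), a difference of 0.09. All 5 differences lie inside the range of -0.36 to 0.40 that held the central 95% of genes.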

How the results depend on the processing

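The 6 members raised by IFN-γ numbered 5 or 6 under all 9 alternatives, and none was lowered under any. The hypoxia results were not stable. The 3 members raised by hypoxia became 1 with no filter and 1 with DESeq2's Wald test, and the 2 lowered became 0 with the Wald test. Without the other stimulus in the model, with a coefficient of variation of 10% or 20%, and with a log2 minimum of 0.5, both counts were 0. Over all genes the hypoxia calls fell too, so the loss was not particular to the members. In the main fit 1117 of 13580 genes were raised and 927 lowered. These were 773 and 700 of 18812 with no filter, and 362 and 214 of 9631 with the Wald test. Of the 13580, 150 and 26 were called without the other stimulus, 362 and 66 with 10%, and 66 and 2 with 20%. IFN-γ raised 647 in the main fit, 239 without the other stimulus, 428 with 10% and 231 with 20%. The 6 other proteasome genes raised by IFN-γ became 0 without the other stimulus or with 20%, and 1 with 10% or with the log2 minimum. The 9 lowered by hypoxia became 2 with the Wald test and 0 under the last 4 settings named for the members. No other proteasome gene was lowered by IFN-γ or raised by hypoxia under any of the 9. No called change of a member changed sign.

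The shares moved with gene length. For untreated normoxic, IFN-γ normoxic, untreated hypoxic and IFN-γ hypoxic libraries in turn, the longest transcript gave 5.09, 25.7, 6.27 and 30.9% for Psmb9, 27.4, 62.7, 23.9 and 62.0% for Psmb10 and 19.2, 48.0, 24.9 and 54.5% for Psmb8. The whole GENCODE union of exons, an alternative chosen after seeing the data, gave the same values. Raw counts gave 8.33, 36.9, 10.2 and 43.1%, then 29.9, 65.5, 26.2 and 64.9%, then 30.1, 62.6, 37.5 and 68.4%. The PA28αβ share was 56.3, 81.1, 63.2 and 82.5% with the longest transcript, 56.1, 81.0, 63.0 and 82.3% with the GENCODE union and 33.4, 62.3, 39.9 and 64.4% in raw counts. In every case IFN-γ raised the share. Adding 5 counts moved no single-pair change, ratio or difference beyond its counting interval, nor did total counts for the single-pair changes and differences or DESeq2 size factors for the single-pair changes.

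No paired analysis was possible because each condition has 1 library. Leaving out a library was not possible either, since the additive fit then has no residual degree of freedom.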

Other observations

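Ctrl, the gene of a chymotrypsin-like protease of the pancreas, lies 1865 bases below Psmb10 in coordinates. It had 181 counts untreated, 316 with IFN-γ, 105 under hypoxic conditions and 328 with both, a log2 change of 1.21 with IFN-γ (adjusted p = 1.57e-13, edgeR). Lcat, on the other side of Psmb10, was not called (0.17, adjusted p = 0.821, edgeR). Whether reads of Ctrl come from transcripts of Psmb10 was not tested.

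Rnf31, a subunit of the linear ubiquitin ligase, begins 611 bases beyond Psme2 and is followed by Irf9. It had 1170 counts untreated, 1713 with IFN-γ, 1129 under hypoxic conditions and 1751 with both, a log2 change of 0.61 (adjusted p = 1.05e-13, edgeR). Emc9, which lies between Psme1 and Psme2, had few counts, 14, 21, 9 and 22 in the same order. It was not called (0.92, adjusted p = 0.479, edgeR). These neighbours were singled out after their values were seen.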
